A study of Mus musculus with 9 samples.

Results

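The subject is 45 mouse genes that carry out or control mitosis: cyclins, mitotic kinases, kinesins, kinetochore and centromere proteins, spindle checkpoint proteins, condensin subunits and their regulators. They were chosen by symbol, from a list of mitotic cyclin, kinase, kinesin, kinetochore and checkpoint genes, and each was matched through its Ensembl identifier to 1 row of a table of 52550 gene identifiers. All 45 were found, and all 45 had enough reads to be tested. Transcripts were counted by 3' end sequencing in 9 libraries of V6.5 embryonic stem cells, a mouse line grown here in medium with serum, LIF and inhibitors of GSK and MEK (Lif 2i). The genotype was wildtype (WT) in 4 libraries and is given as KLF2/KLF4 DKO, loss of both transcription factors, in the other 5. Medium, line and inhibitors were shared by both groups. The labels do not say how the alleles were made, whether the knockout line is 1 clone, or whether replicates were separate cultures, so that p-values measure only the spread between these libraries, which may be technical.

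In a dividing cell, CDK1 bound to cyclin A or B drives entry into mitosis, and CDC25 phosphatases switch it on. Aurora and Polo-like kinases build the spindle, kinetochores attach chromosomes to it, and the spindle checkpoint (BUB, MAD and TTK proteins) holds back the anaphase-promoting complex until all are attached. CDC20 then activates that complex, securin (Pttg1) and cyclin B are destroyed, separase (Espl1) frees the sister chromatids, and the cell divides. Genes for these proteins are transcribed mainly in G2 and M phase, through promoters that often hold CCAAT boxes, bound by NF-Y, and a cell cycle genes homology region (CHR), bound by the MuvB, B-MYB and FOXM1 complexes. Embryonic stem cells divide fast with a short G1 phase, and such genes are abundantly transcribed in them.

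Levels are given as CPM, read counts scaled to library sizes with TMM factors. Klf2 ranged from 447.8 to 468 CPM across WT and from 594 to 635 across the libraries labelled DKO, and Klf4 from 775 to 878 and from 1403 to 1769. Both targeted genes were thus higher, not lower, in the libraries labelled DKO. Which exons were deleted is not in the labels, and 3' reads outside a deletion check nothing, so every direction here is that of the libraries labelled DKO (named DKO 1 to DKO 5) over those labelled WT. All 10 pluripotency markers were detected, at a summed 3097 to 3237 CPM across WT and 3990 to 4187 across DKO 1 to 5, with Pou5f1 at only 18.9 to 26.3 CPM over all 9. The sums of 10 fibroblast markers were 13.5 to 16.6 CPM across WT and 6.89 to 10.3 across DKO 1 to 5, mostly Col5a1 (8.53 to 10.9 and 3.14 to 4.22), with Lum at 0 in all; those of 10 markers of differentiated cells were 2.44 to 5.24 and 1.81 to 3.92, with Krt5 and Myod1 at 0. What part such differences had in the results was not tested. Libraries held 6035642 to 7098530 counts, and 3 counts equalled 0.426 to 0.506 CPM. Counts of single genes of the set ran from 52 to 12897 per library, with 2 of them, Cdc25c and Nuf2, under 100 in some library.

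Transcripts of the mitotic genes were mostly slightly lower in the libraries labelled DKO. Of the 45 genes, 21 fell, 7 rose and 17 did not pass (edgeR quasi-likelihood test with Benjamini-Hochberg adjustment over all 11893 genes tested, adjusted p under 0.05). Falls were led by Aurka, Cdc25b, Cdca8, Plk1 and Birc5, and rises by Foxm1, Ncapd2, Plk4 and Cenpf. Of all genes tested, 24.0% fell and 23.9% rose (47.8% either way), against 46.7% and 15.6% of the mitotic genes. Among the 7990 tested genes in the same range of mean CPM, 25.2% fell and 27.1% rose (52.3% either way). The median log2 fold change was -0.12 over the mitotic genes, with 33 of 45 below 0, and 0.01 over all genes tested.

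The changes were small. The largest, that of Foxm1, was 1.48-fold, so 0 of 45 reached 1.5-fold, a size that 22.4% of all tested genes and 14.4% of those in the same range of CPM passed. The quartiles of the log2 fold change were -0.24 and 0.01 in the mitotic genes, and -0.25 and 0.27 in all tested genes. The libraries of the 2 groups did not overlap in CPM for 18 of the 45 that were lower, where 19.1% of all genes were lower without overlap, and for 5 of the 45 that were higher, against 18.4% (37.4% either way). All but Ccnb2 of these passed the test. In the same range of mean CPM those shares were 19.9% and 21.4% (41.3% either way). The median gene stood at a log2 ratio to its WT mean of -0.06 in DKO 1, -0.12 in DKO 2, -0.15 in DKO 3, -0.16 in DKO 4 and -0.13 in DKO 5, and between -0.01 and 0.01 in the 4 WT libraries. DKO 1 was thus nearest to WT, with 27 of the genes below their WT means, against 31 to 36 in the other 4. In bulk RNA, fewer cells in G2 and M phase and fewer of these transcripts per such cell cannot be told apart.

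**Figure D1:**
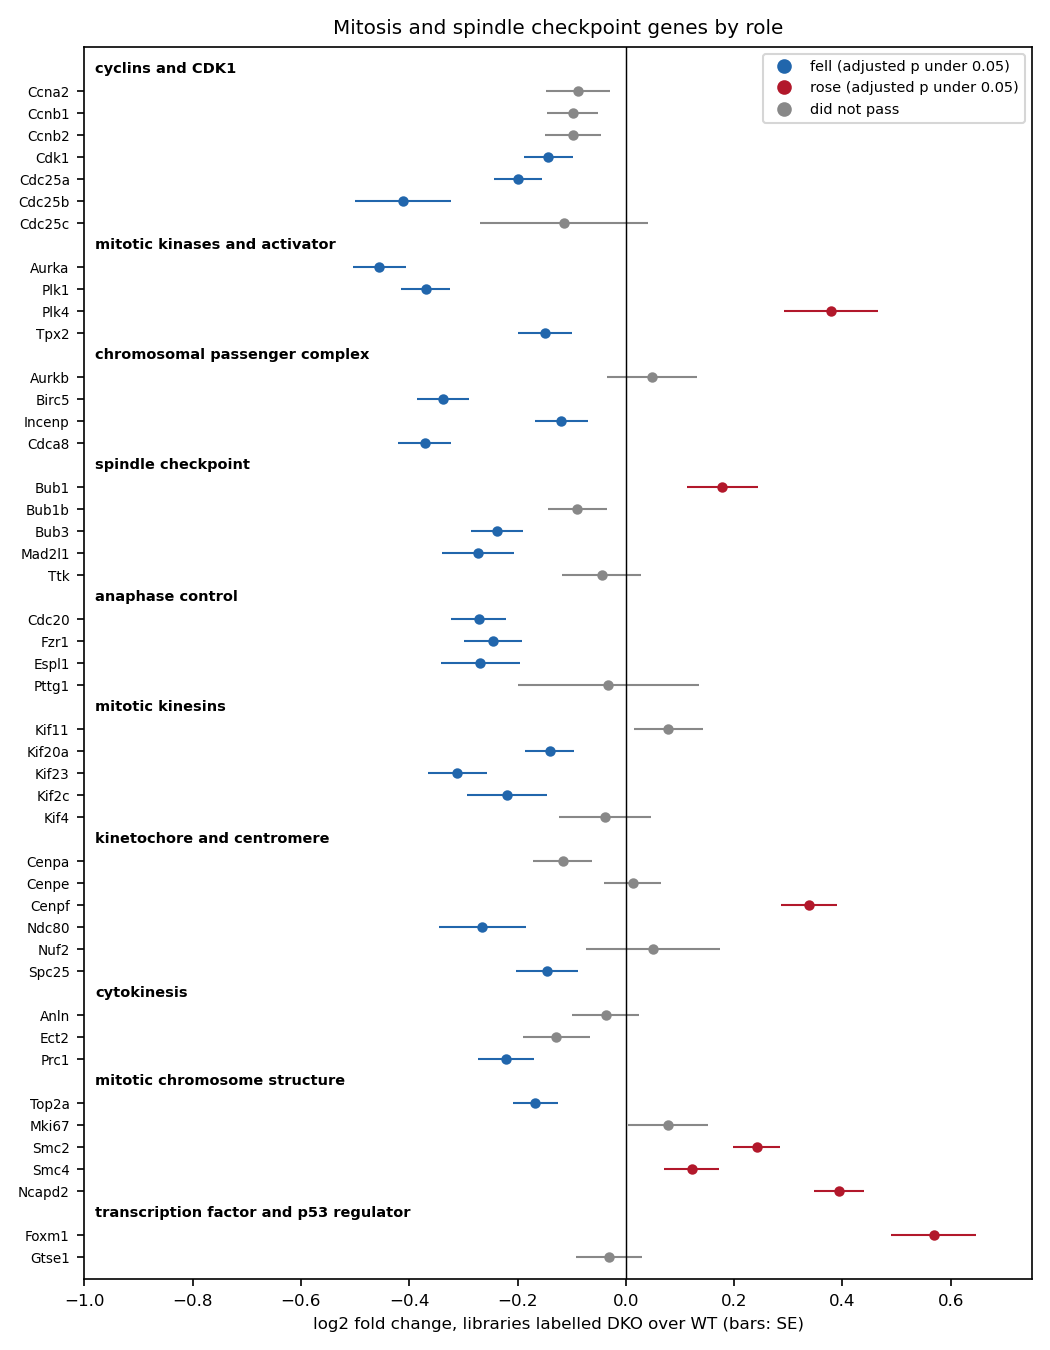
Log2 fold change of each of the 45 mitotic genes (x axis; libraries labelled DKO over WT, 5 against 4; bars are standard errors), grouped by role on the y axis. Blue points fell (21), red points rose (7) and grey points did not pass (17).

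Promoters of most of these genes held elements known from G2 and M phase transcription. RefSeq promoter windows (GRCm38.p6, the same assembly as mm10), from 250 bases before to 50 after the annotated start, matched 37 of the 45 by symbol, and Aurkb, Ccna2, Cdc25c, Foxm1, Incenp, Kif20a, Smc4 and Tpx2 had none in the table. The letters CCAAT, on either strand, were in 29 of the 37 (78.4%) and in 41.1% of 27018 genes with a window. Those 27018 were not limited to genes tested here, so these shares are not matched for expression. A CHR, searched as TTTGAA or TTCGAA on either strand, was in 27 (73.0%) and in 21.7% of all. Both were in 24 (64.9%) against 9.65%. At least 2 CCAAT were in 19 (51.4%) against 13.3%. A CHR and a CCAAT box on the other strand can share 1 base, as they do after the start of Cdca8. The windows of Birc5, Mad2l1, Nuf2, Plk4 and Pttg1 held neither. RefSeq starts can differ from the gene bounds of GENCODE, the annotation used for positions. By GENCODE, the windows of Cdca8, Kif2c, Kif4 and Pttg1 lay wholly inside the gene, and those of Mad2l1 and Plk4 ended before it began. The sequence around the GENCODE start of these genes was thus not, or not fully, searched. These matches describe the sequence and show no binding.

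**Figure D2:**
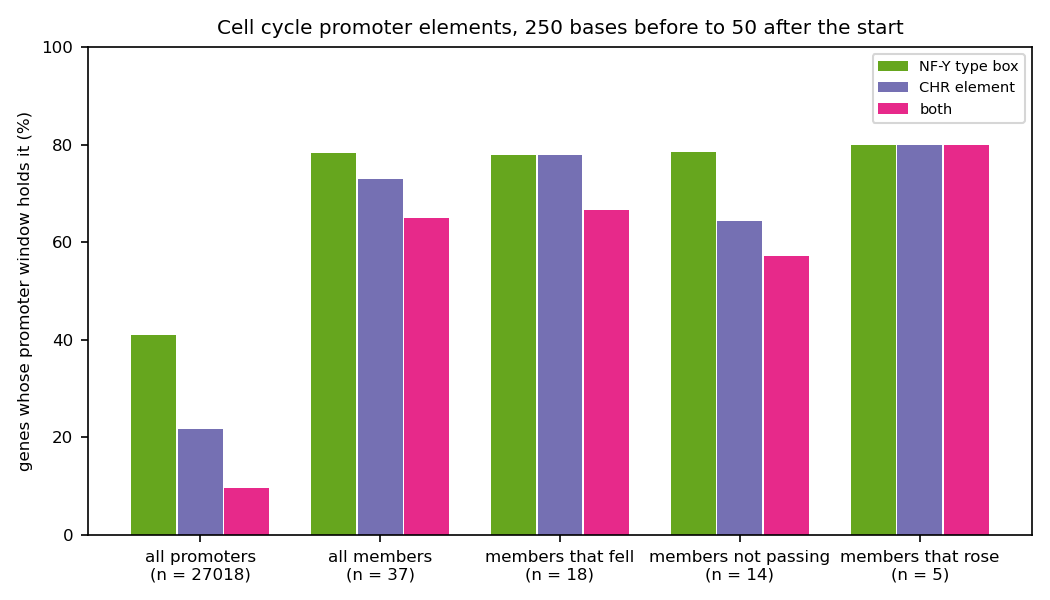
Share of genes (y axis, percent) whose promoter window holds a CCAAT box, a CHR, or both, over all 27018 promoters, the 37 mitotic genes with a window (members), and those that fell (18), did not pass (14) or rose (5). Both are held by 9.65% of all genes with a window, and by 12 of the 18 mitotic genes that fell, 8 of 14 that did not pass and 4 of 5 that rose.

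A CHR was in 14 of 18 genes that fell (77.8%), in 4 of 5 that rose and in 9 of 14 that did not pass (64.3%), and a CCAAT box in 14, 4 and 11 of them. Kif2c and Cdca8, whose windows lay inside their genes, are among those that fell and held a CHR. Only 5 of the 7 genes that rose have a window, and the differences between these groups were not tested. The share with a CHR dropped to 37.8%, and with both to 35.1%, when only the 250 bases before the start were searched, against 19.6% and 7.92% of all genes. Many CHRs lay just after the start: in 24 of the 37 genes (64.9%, against 6.11% of all), 1 began within 50 bases of it on either side. A CCAAT box began in the 100 bases before the start in 26 (70.3%, against 22.0%). A pair of CCAAT boxes beginning 31 to 33 bases apart was in Aurka, Ccnb1, Ccnb2, Cdk1 and Spc25, 13.5% of the mitotic genes and 1.11% of all. The bounds of 50, 100 and 31 to 33 bases were not among the searches planned beforehand and may follow the positions seen in these genes. Their shares are therefore description only.

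Shown here, from 150 bases before to 50 after the start, 5' to 3' on the strand of the gene, are 3 genes that fell (Aurka, Plk1, Cdca8), 2 that rose (Ncapd2, Cenpf) and 2 that did not pass (Ccnb2, Ttk), all with both elements. Plk4, which rose, is shown too, and its window has neither. Capitals mark CCAAT or its complement ATTGG and the CHR or its complement (TTCAAA in Ttk).

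Aurka (chr2:172370521-172370720, minus strand): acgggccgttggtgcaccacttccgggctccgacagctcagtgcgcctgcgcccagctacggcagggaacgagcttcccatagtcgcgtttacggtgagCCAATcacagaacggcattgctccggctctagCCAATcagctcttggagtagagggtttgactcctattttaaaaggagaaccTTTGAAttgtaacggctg
Plk1 (chr7:122159285-122159484, plus strand): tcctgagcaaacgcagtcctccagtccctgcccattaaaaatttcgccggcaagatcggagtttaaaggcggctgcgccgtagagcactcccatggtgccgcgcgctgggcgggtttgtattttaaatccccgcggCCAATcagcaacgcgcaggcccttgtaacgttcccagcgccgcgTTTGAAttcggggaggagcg
Cdca8 (chr4:124936868-124937067, minus strand): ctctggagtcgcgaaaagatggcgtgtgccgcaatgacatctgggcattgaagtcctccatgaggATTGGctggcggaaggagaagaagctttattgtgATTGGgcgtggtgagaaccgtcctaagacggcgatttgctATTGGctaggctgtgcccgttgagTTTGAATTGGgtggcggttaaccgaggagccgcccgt
Ncapd2 (chr6:125191537-125191736, minus strand): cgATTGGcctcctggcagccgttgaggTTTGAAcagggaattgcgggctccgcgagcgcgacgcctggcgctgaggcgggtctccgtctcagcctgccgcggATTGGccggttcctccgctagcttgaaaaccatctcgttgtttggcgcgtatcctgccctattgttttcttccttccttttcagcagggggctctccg
Cenpf (chr1:189688037-189688236, minus strand): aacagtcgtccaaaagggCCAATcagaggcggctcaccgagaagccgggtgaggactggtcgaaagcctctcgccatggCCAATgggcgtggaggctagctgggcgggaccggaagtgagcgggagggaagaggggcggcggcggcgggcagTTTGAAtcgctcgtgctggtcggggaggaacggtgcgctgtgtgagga
Ccnb2 (chr9:70421505-70421704, minus strand): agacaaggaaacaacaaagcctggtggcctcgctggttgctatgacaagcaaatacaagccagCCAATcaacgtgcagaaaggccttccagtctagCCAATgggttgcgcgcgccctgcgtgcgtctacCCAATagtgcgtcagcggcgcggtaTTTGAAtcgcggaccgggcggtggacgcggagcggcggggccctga
Ttk (chr9:83834539-83834738, plus strand): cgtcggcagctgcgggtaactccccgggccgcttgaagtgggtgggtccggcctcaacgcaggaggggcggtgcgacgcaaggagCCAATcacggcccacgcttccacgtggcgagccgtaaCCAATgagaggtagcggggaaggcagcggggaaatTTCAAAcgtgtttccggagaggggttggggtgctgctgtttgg
Plk4 (chr3:40799801-40800000, plus strand): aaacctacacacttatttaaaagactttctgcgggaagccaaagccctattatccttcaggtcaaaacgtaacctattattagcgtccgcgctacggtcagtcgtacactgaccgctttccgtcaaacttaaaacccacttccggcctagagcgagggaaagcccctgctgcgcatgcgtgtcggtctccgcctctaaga

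In Aurka the CCAAT boxes begin 51 and 19 bases before the start and the CHR 33 bases after it, and in Plk1 the box begins 14 bases before and the CHR 31 after. In Cenpf the boxes begin 132 and 71 bases before and the CHR 3 after. In Ncapd2 the CHR begins 123 bases before the RefSeq start. GENCODE has this minus-strand gene begin further upstream, at 125191701, close to that CHR. Whether Ncapd2 differs from the other genes in the place of its CHR thus depends on the start used.

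Of the cyclin and CDK1 group, 3 of 7 genes fell and 0 rose, and all 7 lay below 0. Cdk1, the kinase at the core of mitotic entry, had 1062, 1092, 974 and 1088 CPM across WT 1 to 4, against 1007, 938, 926, 909.6 and 991 across DKO 1 to 5, with DKO 1 and DKO 5 inside the range of WT and the other 3 below it (log2 fold change -0.14 ± 0.05, SE, edgeR adjusted p = 0.00870). Cdc25a, a CDK phosphatase of S phase and mitotic entry, had 385, 388, 389 and 385 CPM across WT 1 to 4, against 329, 326, 348, 345 and 337 across DKO 1 to 5. Its groups were well apart and both tight, and it fell by 12.9% (log2 fold change -0.20 ± 0.04, SE, edgeR adjusted p = 0.000357). Cdc25b, the phosphatase that starts CDK1 activation at centrosomes, had 51.3, 51.4, 60.8 and 50.6 CPM across WT 1 to 4, against 45.5, 44.3, 42.2, 35.1 and 33.9 across DKO 1 to 5, so that the groups did not overlap and DKO 4 and 5 were lowest (log2 fold change -0.41 ± 0.09, SE, edgeR adjusted p = 0.000230).

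The B cyclins themselves did not pass. Ccnb1, the main partner of CDK1, had 331, 345, 325 and 327 CPM across WT 1 to 4, against 332, 298, 305, 299 and 317 across DKO 1 to 5, with DKO 1 inside the range of WT and the other 4 libraries labelled DKO below it (log2 fold change -0.10 ± 0.05, SE, edgeR adjusted p = 0.0863). Ccnb2, the other B cyclin, did not overlap between the groups, at 151 to 158 CPM across WT and 135 to 147 across DKO 1 to 5, yet its log2 fold change of -0.10 ± 0.05 missed the threshold (edgeR adjusted p = 0.123). Ccna2, cyclin A2, was at 209.7 to 259 CPM across WT and 205 to 243 across DKO 1 to 5 (-0.09 ± 0.06, edgeR adjusted p = 0.230). Cdc25c, the lowest in counts of the 3 phosphatases, was at 8.39 to 12.5 CPM across WT and 8.37 to 11.6 across DKO 1 to 5 (-0.11 ± 0.16, edgeR adjusted p = 0.573). Without WT 3 Ccna2 passed (-0.15, edgeR adjusted p = 0.0320), and without DKO 1 so did Ccnb1 (-0.12, edgeR adjusted p = 0.0277).

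Aurora A and Polo-like kinase 1, which mature centrosomes and build the spindle, showed the clearest falls. Aurka had 255, 280.4, 261 and 259 CPM across WT 1 to 4, against 191, 192, 201, 189 and 189.7 across DKO 1 to 5. All 5 libraries labelled DKO lay close together and far below the lowest of WT, and the level fell by 27.1% (log2 fold change -0.46 ± 0.05, SE, edgeR adjusted p = 1.22e-09). Plk1 had 611, 650.5, 655 and 593 CPM across WT 1 to 4, against 485, 493, 503, 468 and 479.6 across DKO 1 to 5, again with no overlap, and fell by 22.6% (log2 fold change -0.37 ± 0.04, SE, edgeR adjusted p = 1.63e-08). Tpx2, which activates Aurora A on spindle microtubules, fell too, with 220.1 to 231 CPM across WT and 192 to 212 across DKO 1 to 5 (-0.15 ± 0.05, edgeR adjusted p = 0.0121).

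Plk4, the kinase that sets the number of centrioles, went the other way. It had 41.6, 36.1, 36 and 39.9 CPM across WT 1 to 4, against 52.9, 51.5, 40.05, 53.3 and 51.7 across DKO 1 to 5, a rise in 4 of the 5 libraries labelled DKO, while DKO 3 stood inside the range of WT (log2 fold change 0.38 ± 0.09, SE, edgeR adjusted p = 0.000453). Summed over these 4 genes, the level was 1154 ± 35.3 CPM over WT against 930.5 ± 11.9 over the libraries labelled DKO (SD, n = 4 and 5).

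In the chromosomal passenger complex, 3 of 4 genes fell. Birc5 (survivin) had 741, 740.1, 757 and 696 CPM across WT 1 to 4, against 564, 559, 657, 576 and 546 across DKO 1 to 5, with DKO 3 the nearest to WT (log2 fold change -0.34 ± 0.05, SE, edgeR adjusted p = 5.42e-07). Cdca8 (borealin), which with survivin holds the complex at centromeres, had 377, 418, 393 and 416 CPM across WT 1 to 4, against 326, 301, 323, 289 and 310 across DKO 1 to 5, and no library of one group reached the other (log2 fold change -0.37 ± 0.05, SE, edgeR adjusted p = 7.88e-08). Incenp, the scaffold, fell only slightly, with 318, 309.5, 329.8 and 295 CPM across WT 1 to 4, against 269, 288, 306, 296 and 283 across DKO 1 to 5. DKO 3 and DKO 4 were inside the range of WT. Its call is weak (log2 fold change -0.12 ± 0.05, SE, edgeR adjusted p = 0.0454) and was lost in 10 of 20 alternative fits, among them those without WT 1, WT 2, WT 3, DKO 1, DKO 2 or DKO 5 (edgeR adjusted p = 0.0598 to 0.143).

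Aurkb, the kinase of the complex, did not pass. It had 45.03, 46.4, 38.9 and 50.4 CPM across WT 1 to 4, against 52.2, 47.01, 45.1, 44.2 and 44.9 across DKO 1 to 5, with DKO 1 above all of WT and the other 4 inside its range (log2 fold change 0.05 ± 0.08, SE, edgeR adjusted p = 0.660). A missed threshold does not show that its level was the same in both groups.

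Of the spindle checkpoint genes, 2 of 5 fell, 1 rose and 2 did not pass. Mad2l1, whose protein binds and blocks CDC20, had 84.96, 79.4, 74.05 and 87.8 CPM across WT 1 to 4, against 71.2, 68.3, 63.9, 64.97 and 68.9 across DKO 1 to 5, with all 5 libraries labelled DKO below WT (log2 fold change -0.27 ± 0.07, SE, edgeR adjusted p = 0.000882). Bub3, which anchors BUB1 and BUBR1 at kinetochores, had 425, 462, 410.3 and 457 CPM across WT 1 to 4, against 394, 370, 362, 357 and 374 across DKO 1 to 5, also without overlap (log2 fold change -0.24 ± 0.05, SE, edgeR adjusted p = 8.82e-05). Bub1, a checkpoint kinase, was higher, with 67.2, 64.5, 64.8 and 68.2 CPM across WT 1 to 4, against 72.1, 83.2, 74.7, 73.1 and 71.3 across DKO 1 to 5. The groups did not overlap for Bub1 (log2 fold change 0.18 ± 0.07, SE, edgeR adjusted p = 0.0254), but the gap was small and the call was lost without WT 2, WT 3 or DKO 2 (edgeR adjusted p = 0.0659 to 0.104).

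Bub1b, which encodes BUBR1, had 201, 232, 211 and 225 CPM across WT 1 to 4, against 219.5, 209, 189.9, 194 and 208 across DKO 1 to 5, and its groups overlapped (log2 fold change -0.09 ± 0.05, SE, edgeR adjusted p = 0.179). Ttk, the kinase (MPS1) at the head of the checkpoint, was at 99.98 to 133 CPM across WT and 102 to 123 across DKO 1 to 5, with WT 3 the highest (-0.04 ± 0.07, edgeR adjusted p = 0.646).

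Anaphase control genes fell in 3 of 4 cases. Cdc20, which the checkpoint restrains, had 335, 329.7, 298 and 329 CPM across WT 1 to 4, against 288, 260, 271, 249 and 270 across DKO 1 to 5, with all of the libraries labelled DKO below WT (log2 fold change -0.27 ± 0.05, SE, edgeR adjusted p = 2.98e-05). Fzr1 (CDH1), which takes over the complex at mitotic exit, had 176, 184, 165 and 174 CPM across WT 1 to 4, against 150, 158, 139, 142 and 147 across DKO 1 to 5 and likewise did not overlap (log2 fold change -0.25 ± 0.05, SE, edgeR adjusted p = 0.000266). Espl1 (separase) had 85.4, 82.5, 76.1 and 87.9 CPM across WT 1 to 4, against 80.8, 65.03, 61.7, 63.96 and 72.5 across DKO 1 to 5, with DKO 1 inside the range of WT (log2 fold change -0.27 ± 0.07, SE, edgeR adjusted p = 0.00264).

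Pttg1 (securin), the inhibitor of separase, had the widest spread of the 45 genes over the libraries labelled DKO. It had 132, 135, 136 and 135 CPM across WT 1 to 4, against 158, 173, 117, 102 and 108 across DKO 1 to 5. The 4 WT libraries lay close together, whereas DKO 1 and 2 lay above WT and DKO 3, 4 and 5 below it, so that the means were close (log2 fold change -0.03 ± 0.17, SE, edgeR adjusted p = 0.897). Its coefficient of variation was 1.21% over WT and 24.2% over DKO 1 to 5, against medians of 5.17% and 5.64% over the mitotic genes and 7.095% and 8.24% over tested genes in the same range of CPM. The libraries labelled DKO also differed over all tested genes. On principal component 2 of log CPM, DKO 1 to 5 were at 6.22, 1.16, 23.1, -13.5 and -14, and WT at -5.14 to 3.1.

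**Figure D3:**
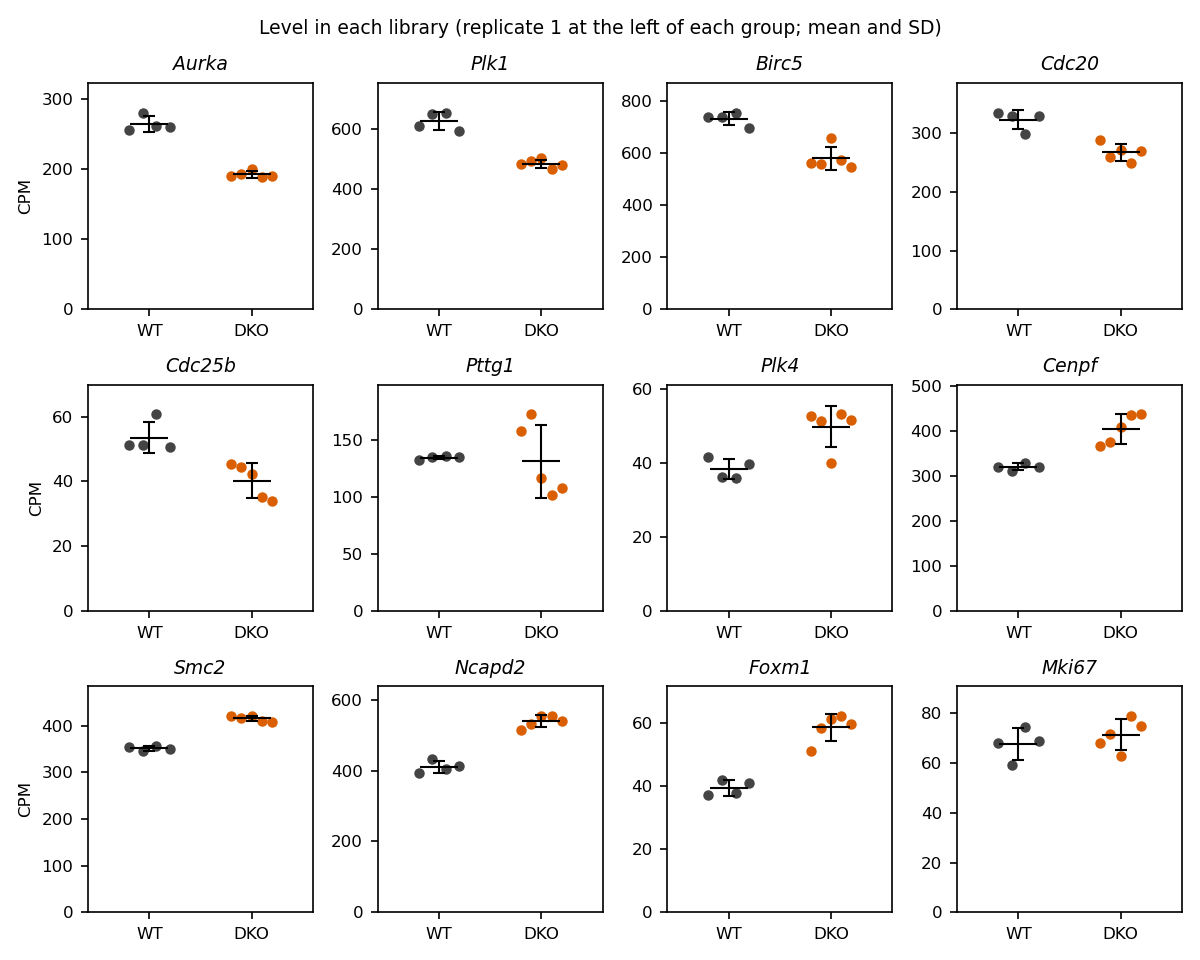
CPM (y axis, from 0) of 12 mitotic genes in each library; points are libraries, replicate 1 at the left of each group, and the bar gives the mean and SD of 4 WT and 5 DKO libraries. Aurka, Plk1, Birc5, Cdc20 and Cdc25b were lower in the libraries labelled DKO and Plk4, Cenpf, Smc2, Ncapd2 and Foxm1 higher, while Pttg1 split within the DKO group and Mki67 overlapped.

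Of the mitotic kinesins, 3 of 5 fell. Kif23 (MKLP1), a subunit of centralspindlin in the midzone, had 149.6, 156, 165 and 149 CPM across WT 1 to 4, against 133, 129, 121, 119 and 123 across DKO 1 to 5, with no overlap (log2 fold change -0.31 ± 0.06, SE, edgeR adjusted p = 1.53e-05). Kif2c (MCAK), which takes microtubules apart at kinetochores, had 112, 101, 98.1 and 112 CPM across WT 1 to 4, against 105, 90.4, 73.7, 89.1 and 95.3 across DKO 1 to 5, with DKO 1 inside the range of WT and DKO 3 lowest (log2 fold change -0.22 ± 0.07, SE, edgeR adjusted p = 0.0151). That call was lost without WT 1, WT 4 or DKO 3 (edgeR adjusted p = 0.0510 to 0.0536). Kif20a (MKLP2), which carries the passenger complex to the midzone, had 314, 306, 312 and 316 CPM across WT 1 to 4, against 298, 277, 279, 279 and 282 across DKO 1 to 5, a small but non-overlapping fall (log2 fold change -0.14 ± 0.05, SE, edgeR adjusted p = 0.0111), not passed without DKO 4 and 5 together (edgeR adjusted p = 0.0569).

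Kif11 (Eg5), the motor that pushes spindle poles apart, had 111, 116, 132 and 121 CPM across WT 1 to 4, against 128, 137, 108, 129.9 and 129.9 across DKO 1 to 5 and did not pass (log2 fold change 0.08 ± 0.06, SE, edgeR adjusted p = 0.323). Kif4, a chromokinesin, was at 34.3 to 39.3 CPM across WT and 32.3 to 37.1 across DKO 1 to 5 (-0.04 ± 0.08, edgeR adjusted p = 0.737). Kif20a shares its last bases, on the opposite strand, with Cdc23, and without a stated strand setting the reads of that pair cannot be told apart.

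At kinetochores, 2 of 6 genes fell and 1 rose. Ndc80, which with Nuf2, Spc24 and Spc25 forms the complex that grips microtubules, had 50.6, 56.4, 59.1 and 50.6 CPM across WT 1 to 4, against 38.3, 45.3, 48.2, 48.3 and 45.4 across DKO 1 to 5 (log2 fold change -0.27 ± 0.08, SE, edgeR adjusted p = 0.00645). Spc25 had 122, 115, 126 and 109 CPM across WT 1 to 4, against 104, 108, 107, 106 and 107 across DKO 1 to 5, a narrow gap between the groups (log2 fold change -0.15 ± 0.06, SE, edgeR adjusted p = 0.0356) that did not pass in 7 of 20 alternative fits, among them those without WT 1, WT 3, DKO 1, DKO 4 or DKO 5 (edgeR adjusted p = 0.05 to 0.137). Nuf2, the partner of Ndc80, was at 13.7 to 19.2 CPM across WT and 14.7 to 18.9 across DKO 1 to 5 and did not pass (0.05 ± 0.12, edgeR adjusted p = 0.767).

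Cenpf, a large protein of the kinetochore corona and nuclear matrix, rose in every library labelled DKO. It had 320, 310.1, 329 and 319 CPM across WT 1 to 4, against 367, 374, 409, 434 and 437 across DKO 1 to 5, with DKO 1 and 2 the lowest and DKO 4 and 5 the highest of the 5 (log2 fold change 0.34 ± 0.05, SE, edgeR adjusted p = 1.62e-06). Cenpa, the histone H3 variant that marks centromeres, had 368, 354, 341 and 369 CPM across WT 1 to 4, against 379, 318, 309.7, 303 and 342 across DKO 1 to 5, with DKO 1 above all of WT, DKO 5 inside its range and the other 3 below it (log2 fold change -0.12 ± 0.05, SE, edgeR adjusted p = 0.0778). Without DKO 1 it passed as lower (-0.17, edgeR adjusted p = 0.00417), and without WT 3 as well (-0.14, edgeR adjusted p = 0.0495). Cenpe, the kinetochore motor that moves chromosomes to the spindle equator, was at 162 to 187 CPM across WT and 173 to 186 across DKO 1 to 5 (0.01 ± 0.05, edgeR adjusted p = 0.864).

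Of the cytokinesis genes, 1 of 3 fell. Prc1, which bundles midzone microtubules, had 204, 203, 218 and 219 CPM across WT 1 to 4, against 184, 177, 196, 172 and 177 across DKO 1 to 5, with no overlap (log2 fold change -0.22 ± 0.05, SE, edgeR adjusted p = 0.000592). Ect2, the activator of RhoA at the cleavage furrow, had 122, 128, 123 and 134 CPM across WT 1 to 4, against 133, 116, 115, 109 and 106 across DKO 1 to 5. DKO 1 was within WT and the other 4 were below, and it did not pass (log2 fold change -0.13 ± 0.06, SE, edgeR adjusted p = 0.0851), but did without DKO 1 (-0.18, edgeR adjusted p = 0.00941). Anln (anillin), a scaffold of the contractile ring, was at 89.96 to 107 CPM across WT and 91.96 to 98.2 across DKO 1 to 5 (-0.04 ± 0.06, edgeR adjusted p = 0.647).

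Of the mitotic chromosome genes, 3 of 5 rose, 1 fell and 1 did not pass, and their summed level changed by 0.87% with overlapping libraries. Ncapd2, a regulatory subunit of condensin I, had 392, 432, 404 and 413 CPM across WT 1 to 4, against 515, 532, 555, 555 and 538 across DKO 1 to 5, and all 5 libraries labelled DKO stood above WT (log2 fold change 0.39 ± 0.05, SE, edgeR adjusted p = 6.02e-09). Smc2, the ATPase subunit shared by both condensins, had 355, 346, 357 and 349 CPM across WT 1 to 4, against 422, 418, 421, 411 and 408 across DKO 1 to 5, in 2 tight groups that did not overlap (log2 fold change 0.24 ± 0.04, SE, edgeR adjusted p = 2.31e-05). Smc4, its partner, was at 325 to 377 CPM across WT and 349.9 to 402 across DKO 1 to 5 and barely passed (0.12 ± 0.05, edgeR adjusted p = 0.0494). It did not pass in 14 of 20 alternative fits, scaling by DESeq2's size factors in edgeR included (edgeR adjusted p = 0.0573), nor without WT 1, WT 2, WT 4, DKO 2, DKO 3 or DKO 4 (edgeR adjusted p = 0.0816 to 0.217).

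Top2a, the topoisomerase that untangles sister chromatids, fell, with 1814, 1828, 1895 and 1824 CPM across WT 1 to 4, against 1592, 1669, 1742, 1614 and 1579 across DKO 1 to 5 and no overlap (log2 fold change -0.17 ± 0.04, SE, edgeR adjusted p = 0.00108). Mki67, the proliferation marker Ki-67 that coats mitotic chromosomes, had 68.1, 59.2, 74.3 and 69.02 CPM across WT 1 to 4, against 68.2, 71.8, 63.02, 79.2 and 75.1 across DKO 1 to 5. DKO 4 and DKO 5 were above all of WT and the other 3 inside its range, and it did not pass (log2 fold change 0.08 ± 0.07, SE, edgeR adjusted p = 0.407).

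Foxm1, the transcription factor of G2 and M phase genes, rose the most of the 45 genes. It had 37.1, 41.9, 37.8 and 41.2 CPM across WT 1 to 4, against 51.1, 58.6, 61.2, 62.4 and 59.8 across DKO 1 to 5, with no overlap (log2 fold change 0.57 ± 0.08, SE, edgeR adjusted p = 2.16e-07). Gtse1, a microtubule-binding protein that also restrains p53, had 115, 112, 111 and 113 CPM across WT 1 to 4, against 121, 104, 102, 103 and 121 across DKO 1 to 5. DKO 1 and DKO 5 were above all of WT and the other 3 below it, and it did not pass (log2 fold change -0.03 ± 0.06, SE, edgeR adjusted p = 0.709).

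**Figure D4:**
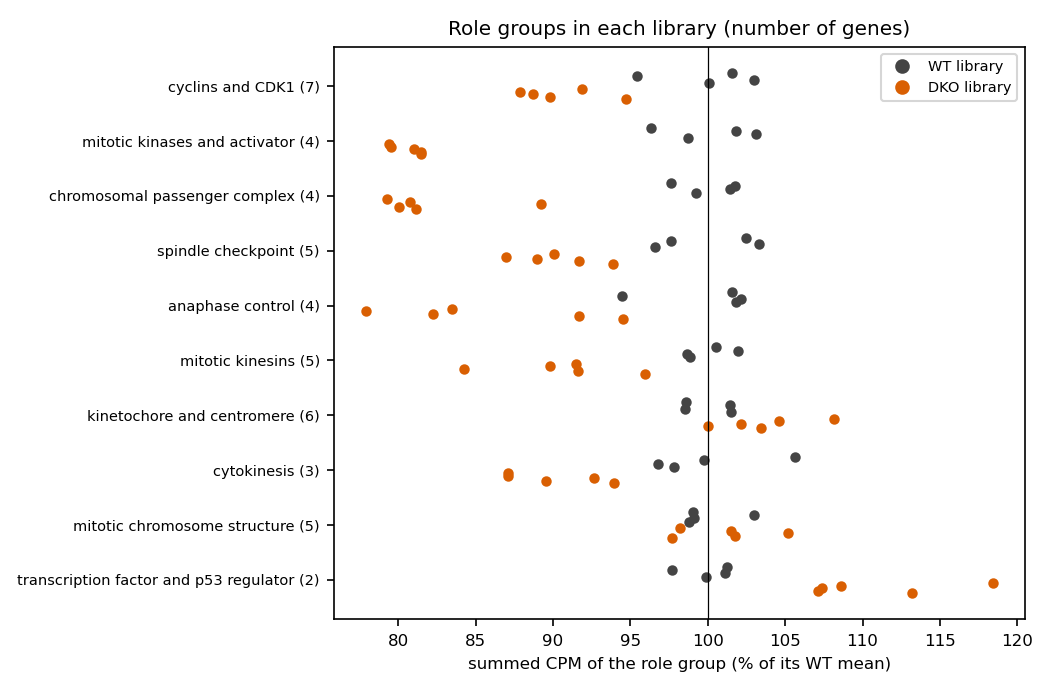
Summed CPM of each role group in each library, as a percent of the group's WT mean (x axis), for 4 WT (dark) and 5 DKO (orange) libraries, with the number of genes in brackets. The sums of cyclins and CDK1, kinases, passenger complex, checkpoint, kinesins and cytokinesis are lower in all 5 libraries labelled DKO than in any of WT, that of Foxm1 and Gtse1 is higher in all 5, and those of anaphase control, kinetochore and chromosome structure genes overlap.

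Summed over all 45 genes, the level was 11885 ± 78.4 CPM over WT against 10965 ± 129.7 over the libraries labelled DKO (SD, n = 4 and 5), a change of -7.75%. As sums, the kinase group changed by -19.4% and the passenger complex by -17.9%, while the kinetochore group was at 1044 ± 17.5 CPM over WT against 1082 ± 31.6 over the libraries labelled DKO (SD, n = 4 and 5) and the chromosome structure group at 3017 ± 60.2 CPM over WT against 3043 ± 91.5 over the libraries labelled DKO (SD, n = 4 and 5). These sums weigh a gene by its counts and carry no test.

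Position on the chromosome moved with 2 of the rises. Foxm1 (mm10 chromosome 6, 128362967 to 128376146, plus strand) and Ncapd2 (chromosome 6, 125168007 to 125191701, minus strand) lie about 3 megabases apart on distal chromosome 6. The 40 nearest tested genes around Foxm1, 20 on each side and none of them a mitotic gene of this set, had a median log2 fold change of 0.46, and 26 of them rose and 3 fell. Around Ncapd2 the median was 0.40, also with 26 up and 3 down, where 23.9% of all genes tested rose and 24.0% fell. These sets of neighbours spanned 9.8 megabases for Foxm1 and 3.62 for Ncapd2 and can share genes, so they are not separate observations. Ncapd2 differed from its neighbours by -0.01 and Foxm1 by 0.11, where their standard errors were 0.05 and 0.08. What part the region had in these rises was not tested.

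Some genes that fell also lay among neighbours whose median was negative. Around Tpx2, 20 of the 40 neighbours fell and 5 rose (median -0.17), around Top2a 18 and 5 (-0.13), and around Cdca8 18 and 3 (-0.17). Of all genes tested, 24.0% fell and 23.9% rose. Tpx2 differed from its neighbours by 0.02, Top2a by -0.04 and Cdca8 by -0.20. Birc5 was at -0.26 relative to its 40 neighbours (median -0.08), but at 0.01 relative to the nearest 10 on each side, whose median was -0.34. What part position had in these falls was not tested. Mad2l1, on chromosome 6 (66535390 to 66547220, plus strand), had neighbours at a median of -0.07, none of the 45 lies on chromosome 8, and the neighbour medians of the 42 genes off chromosome 6 ran from -0.17 to 0.15. Plk4 (neighbours at 0.12), Cenpf (0.06), Smc2 (0.08) and Bub1 (-0.05) exceeded their neighbours by 0.26, 0.27, 0.16 and 0.22. With 10 neighbours on each side these differences were 0.17, 0.30, 0.19 and 0.07, and that of Bub1 was then as small as its SE of 0.07. Aurka (-0.02), Plk1 (0.11), Kif23 (0.09), Cdc25b (-0.07) and Ndc80 (0.07) differed from theirs by -0.48 to -0.33, and by -0.48 to -0.28 with 10 on each side. Of the 45 genes 36 were below their neighbours and 9 above, with a median difference of -0.08, and 33 and 12 with 10 on each side, with a median of -0.12. Off chromosomes 6 and 8, 20 of 42 mitotic genes fell (47.6%) and 5 rose (11.9%), against 22.4% and 22.7% of all tested genes there.

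**Figure D5:**
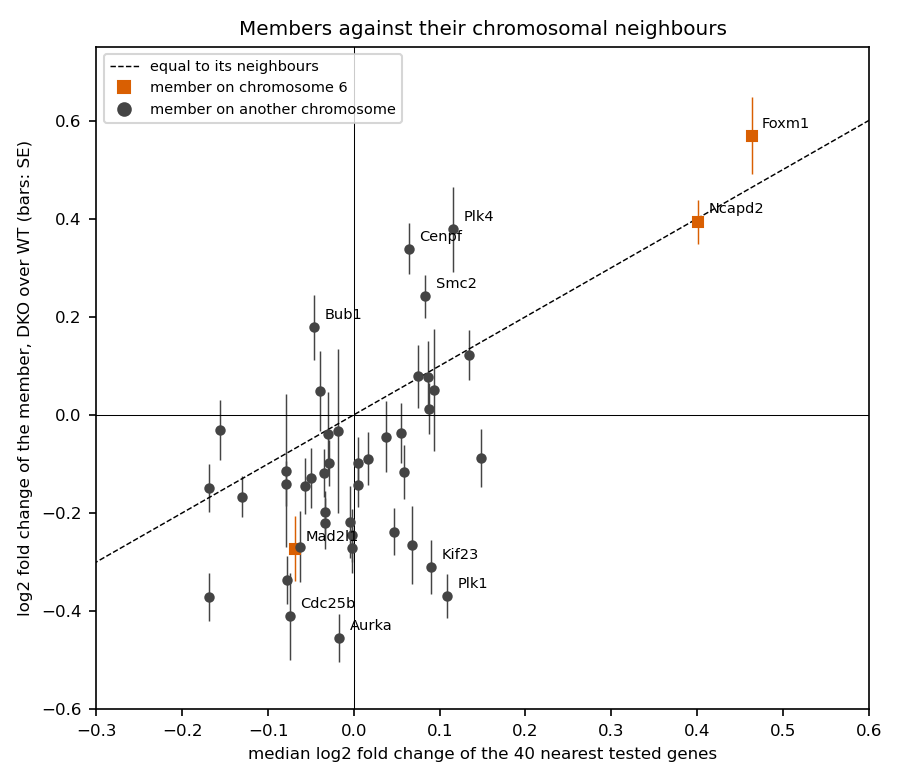
Log2 fold change of each mitotic gene (y axis, bars are standard errors) against the median log2 fold change of its 40 nearest tested genes (x axis); squares mark the 3 genes on chromosome 6 and the dashed line equality. Foxm1 and Ncapd2 stand at the right, on or near the line, and most other genes lie below it.

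A separate list held 124 other genes of the mitotic machinery. Of these, 28 fell, 31 rose and 65 did not pass, with a median log2 fold change of 0.00, beside 24.0% and 23.9% of all tested genes. The difference between that list and the 45 was not tested. Values in brackets after its genes are log2 fold changes. Its 9 genes on chromosomes 6 and 8 included 4 of the rises and 4 of the falls.

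The anaphase-promoting complex and its ubiquitin enzymes had 7 falls (41.2%) and 5 rises (29.4%) among 17 genes, beside 24.0% and 23.9% of all tested genes. Ube2c, the ubiquitin-conjugating enzyme that starts chains on its substrates, fell (-0.25), as did the subunit Anapc5 (-0.35). Anapc10 (-0.76) and Cdc16 (0.30), a fall and a rise, both lie on chromosome 8, among neighbours at -0.47 and 0.47. Cdc23 (-0.13) did not pass. Around CDK1, 4 of 11 genes rose (36.4%) and 1 fell (9.09%). Wee1 (0.28), the kinase that inhibits CDK1, and Mastl (0.36), which shuts off the phosphatase opposing CDK1, rose. So did Ppp2r2d (0.28), a subunit of that phosphatase, and Arpp19 (0.14), named after its value was seen. Pkmyt1 (-0.62), another inhibitor of CDK1, fell and Cks1b (-0.02) did not pass.

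Among checkpoint and corona genes, 3 of 11 rose and 3 fell (27.3% each), near the 23.9% and 24.0% of all tested genes. Zw10 (0.40), which recruits dynein to kinetochores, and the shugoshins Sgo1 (0.22) and Sgo2a (0.34), which protect centromeric cohesin, rose, whereas Mad1l1 (-0.53), the partner of MAD2, fell and Trip13 (-0.04) did not pass. Of 27 centromere and kinetochore genes 5 rose (18.5%) and 8 fell (29.6%). Ska1 (-0.52), of the complex that tracks microtubule ends, and Cenps (-0.44) fell, as did Cenpt (-0.70) on chromosome 8, and Cenpu (0.53), also on chromosome 8, rose, the last 2 among neighbours at -0.62 and 0.39.

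Spindle and centrosome genes had 8 falls (32.0%) and 4 rises (16.0%) among 25, beside 24.0% and 23.9% of all tested genes. Ckap2, a spindle microtubule protein, went from 167 ± 3.61 to 322 ± 20.9 CPM (0.95, edgeR adjusted p = 6.85e-17), the largest change of the list, on chromosome 8 among neighbours at 0.45. Hmmr (0.43) rose, and Spag5 (astrin, -0.55) and Numa1 (-0.35), which organise spindle poles, fell, while Nusap1 (0.01) did not pass. In cohesin and condensin, 4 of 15 genes rose (26.7%) and 0 fell. The rises were those of the cohesin genes Smc1a (0.32) and Stag1 (0.38), the release factor Wapl (0.29) and Pds5b (0.23). Smc3 (0.08) did not pass, nor did the other condensin subunits Ncapg (-0.03), Ncaph (-0.23), Ncapd3 (0.21), Ncapg2 (-0.003) and Ncaph2 (-0.01), named after their values were seen.

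In a group of DREAM, MuvB, MYB and E2F regulators, 6 of 18 rose (33.3%) and 1 fell (5.56%), beside 23.9% and 24.0% of all tested genes. Genes of the E2f and Tfdp families are counted in it, so these counts are not of CHR-binding factors alone. Mybl2 (B-MYB) went from 161 ± 10.8 to 215 ± 12.3 CPM (0.42, edgeR adjusted p = 1.17e-07), and E2f8 (0.39) rose. Tfdp1 (0.60) rose and E2f4 (-0.62) fell on chromosome 8, among neighbours at 0.42 and -0.60, and Rbbp4 (0.09) did not pass.

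Of 48 DNA replication and S phase genes, 21 fell and 3 rose, beside 24.0% and 23.9% of all tested genes, with a median log2 fold change of -0.11. Tk1 (-1.03), thymidine kinase, fell most, and Mcm5 (-0.79), Cdt1 (-0.55) and Orc6 (-0.64) fell on chromosome 8 among neighbours at -0.47 to -0.60, while Mcm7 (-0.08) did not pass. Off chromosomes 6 and 8 the median was -0.09, with 15 of 40 lower and 1 higher, beside 22.4% and 22.7% of all tested genes there, and the median of the mitotic genes was -0.12. Cdkn1a, the CDK inhibitor p21, rose (0.70) and Ccnd1, cyclin D1 of G1 phase, fell (-3.81). What part either had in the mitotic transcripts was not tested.

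Counting limits touch some of these genes. Exons of Ccna2, Cdc20, Cdc25b, Cdc25c, Cdca8, Fzr1, Kif20a, Kif4, Plk1 and Prc1 overlap an annotated gene on the opposite strand. Of those partners, Exosc9 (6277 and 6221 counts summed over WT and over the libraries labelled DKO, opposite Ccna2) and Cdc23 (5037 and 5359) had the most reads, and without a stated strand setting such pairs cannot be told apart. A search of the last 400 bases of each gene's coding transcripts found near-identical copies of at least 95% identity over at least 80 bases. Processed pseudogenes matched Ccnb1, Mki67, Ndc80 and Plk4, with 0 to 11 counts each summed over a group, and a noncoding gene with 112 and 136 counts matched Kif2c on the other strand. Ends of Cenpf, Kif11 and Prc1 transcripts matched stretches found in the transcripts of 3 or more unrelated genes. Exons of Foxm1, Ncapd2 and Top2a overlap small or scarcely counted genes on the same strand, with 0 to 29 counts summed over a group. Levels of the named genes are therefore less certain.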

How the data were processed

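RNA of 4 WT libraries and 5 libraries labelled KLF2/KLF4 DKO was made into QuantSeq 3' FWD libraries, per the labels' protocols, so that a count is a read at a transcript's 3' end and is not scaled by length. The authors deposited whole-number counts per Ensembl gene. The submitters' processing notes name mm10, cutadapt, STAR, featureCounts and DESeq2; settings, strand among them, were not stated in these sources. Of 52550 identifiers, 52403 were matched to GENCODE M21 symbols and positions and 147 were not. Counts were filtered with filterByExpr, scaled by TMM and tested with edgeR 4.0.16 (quasi-likelihood, robust; R 4.3.3), with Benjamini-Hochberg adjustment over all 11893 genes tested and a threshold of 0.05. The test was checked on simulated counts. Alternatives used DESeq2 1.42.0, limma 3.58.1, other scalings and filters, and left-out libraries. The 45 genes, the gene lists and the tests were chosen with earlier results of these data known. All 45 genes are named; libraries are given one by one for up to 3 passing genes of each role with the smallest adjusted p and the most abundant non-passing one. In the other lists, up to 4 passing genes of each subgroup and the most abundant non-passing one are named, apart from 1 result that is not reported here. Promoters came from RefSeq (GRCm38.p6). Same-numbered WT and DKO libraries correlated at only 0.0103 to 0.0701 in their deviations from the group means, though each shared number matched its own number best. The numbers were not taken as pairs in the main fit, and a fit with the number as a term is given below.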

Additional observations from a re-analysis of the deposited data

Results flagged for a closer look

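In 7 of 90 groups of libraries (45 genes in WT and in DKO), 1 library stood apart from the rest of its group by Dixon's 95% criterion, which flags about 1 in 20 groups by chance. In DKO 3, Aurka (200.6 CPM) and Birc5 (657.2 CPM) were the highest of the 5 libraries labelled DKO and Plk4 (40.05 CPM) the lowest. In WT 3, Cdc25b was the highest of WT at 60.8 CPM and Cdc20 the lowest at 298.4 CPM. Bub1 was highest in DKO 2 at 83.2 CPM, and Kif20a in DKO 1 at 297.7 CPM.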

How the results depend on the processing

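In 20 alternative fits no gene of the 45 that passed reversed its direction, and 22 of the 28 passing genes (17 lower, 5 higher) passed with the same sign in each fit that tested them. Incenp, Smc4, Spc25, Bub1, Kif2c and Kif20a did not. Of the 17 genes that did not pass, 13 passed in none of the 20 fits, and Ccna2, Ccnb1, Cenpa and Ect2 passed in at least 1. Leaving out each library in turn gave 5 to 7 mitotic genes higher and 18 to 22 lower. The median log2 fold change of the 45 ranged from -0.13 to -0.09 over all fits, nearest to 0 without DKO 4 and DKO 5 together (6 higher, 18 lower). With genes of chromosomes 6, 8 and Y left out before scaling, 4 of 42 mitotic genes were higher, since Foxm1 and Ncapd2 were not in that fit and Smc4 no longer passed, and 1 of 40 replication genes was. With 10 neighbours on each side in place of 20, the difference from the neighbours moved by over 1 SE in 18 of the 45 genes and changed sign in 2 that passed, Birc5 (from -0.26 to 0.0061) and Smc4 (from -0.01 to 0.0643). That of Ncapd2 was -0.0698, of Bub1 0.0672 (from 0.22) and of Plk4 0.171 (from 0.26). The cause was not tested. With only the bases before the start searched, 37.8% of the mitotic genes with a window held a CHR and 35.1% both elements.

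The replicate block, with the shared replicate number as a term, gave 7 mitotic genes higher and 21 lower, as without the block. Cenpa passed (edgeR adjusted p = 0.0262) and Incenp did not (edgeR adjusted p = 0.0575). Same-numbered libraries correlated at 0.0103 to 0.0701 in their deviations, and each of the 4 numbers was the best match of its own number in the other group, a hint from the data and not from the design.

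Precision is set by 4 and 5 libraries and by counts. Cdc25c and Nuf2 had under 100 counts in some library, and their standard errors, 0.16 and 0.12 on the log2 scale, are as large as or larger than the median change of the 45 genes.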
